A study of Mus musculus with 23 samples.

Results

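Folate reaches the brain through receptors and carriers and is then passed through a cycle of enzymes that hand single carbon units to nucleotides and to methionine. Folr1 and Folr2 encode folate receptors held at the cell surface, Slc19a1 the reduced folate carrier, and Slc46a1 the proton-coupled folate transporter. Inside the cell, Mthfd1 and Shmt1 interconvert the single-carbon forms of folate, while Mtr, the vitamin B12-dependent methionine synthase, and its reactivating partner Mtrr move a methyl group from folate to homocysteine. In the adult brain, Folr1 is known from the choroid plexus epithelium, where it takes part in folate transport into the cerebrospinal fluid, and Folr2 is known from macrophages. These 8 genes were taken by name, as every non-control probe that carried 1 of the 8 gene symbols, which gave 12 probes of 39429 (8 of 31829 gene names). The rule used no measured value, although the genes were chosen with earlier results of these data known.

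Expression was measured with 1 one-colour Agilent array for each of 12 whole brains, 4 per diet, from male C57BL/6J (B6) progeny at 19 weeks of age. B6 eggs and sperm from parents on a standard breeding diet were joined by in vitro fertilization, and the embryos were carried by ICR recipient mothers that ate 1 of 3 experimental diets from before embryo transfer until delivery. The control diet (CD) held 20% casein and 0.02% folic acid by weight, the protein-restricted diet (PR) 5% casein and 0.02% folic acid, and the folic acid-supplemented protein-restricted diet (FA) 5% casein and 0.1% folic acid. FA against PR therefore asks about folic acid at low protein, PR against CD about protein restriction, and FA against CD about both at once. The progeny of all 3 groups were delivered by cesarean section, raised by ICR foster mothers, and given the CD after weaning, and brains were taken after behavioral tests. The diet thus acted on the mother, and the sources used here differ on which diet the foster mothers ate. Litters were not named in the labels, so the p-values measure the spread between these mice only.

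All 4 arrays of a diet lay on 1 slide of their own, and diet and slide cannot be told apart. Of 43020 spots per array, 27068 to 28458 were well above background on the CD arrays, 31266 to 33478 on the PR arrays, and 30408 to 31672 on the FA arrays, so that this count moved with the comparisons against CD, and its part in them was not tested. Marker genes of neurons (5 of 6 listed genes had a probe), oligodendrocytes (5 of 5), astrocytes (7 of 7), and cerebellum (4 of 4) were well above background on all 12 arrays, as the label of whole brain requires. Of the pituitary markers, Gh and Prl moved with both comparisons against CD, and the others were not called. Gh, growth hormone, read 7.73 to 8.37 in CD, clearing background on all 4 arrays, read 2.24 to 3.10 in PR and cleared it on 0 arrays, and in FA read 2.26 to 2.58 on 3 arrays and 6.16 on replicate 4, the only FA array to clear it. Prl, prolactin, followed the same arrays, at 7.84 to 7.98 in CD, 2.65 to 3.83 in PR, and 7.35 on FA replicate 4. These 2 were the only ones of 8 pituitary probes called, lower in PR than in CD (adjusted p = 0.0005 and 0.0056) and in FA than in CD (0.0010 and 0.0066). Lhb cleared background on every array and averaged 6.53 in CD, 6.46 in PR, and 6.65 in FA. Cga averaged 7.30 in CD, 6.51 in PR, and 5.67 in FA, and cleared background on all CD and PR arrays and on 3 FA arrays. Tshb and Fshb did not clear it on most arrays. Pou1f1, a pituitary transcription factor, was not called. Its probe read 13.65 to 14.55 over the 12 arrays, including those where Gh and Prl did not clear background, so its lack of a call is no measure of pituitary content. The part of the pituitary markers in the results was not tested. In whole tissue, fewer cells of a type and less RNA per cell cannot be told apart.

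Each probe is a 60-base sequence whose spot brightness reports 1 stretch of a transcript, and 4 of the 8 genes had a pair of probes. The probe of the pair with the higher mean is called probe a. In Folr1, Slc19a1, and Slc46a1, probe a lay 3′ of probe b on the transcribed strand, by 10126, 11615, and 128 bases of genome, and in Shmt1 it lay 5′ of probe b, by 17354 bases. The following 30-base stretches, 5′ to 3′, belong to Mthfd1, which differed most clearly between diets, and to the 3 pairs with both probes well above background on all arrays. They are the first bases of each probe, except that the stretch of Folr1 probe a runs from base 14 to base 43 to show, in capitals, the letters AATAAA, which are those of the common polyadenylation signal but were not tested as one.
Folr1 probe a: gacagcctctttAATAAAccagacattcca
Folr1 probe b: ctgggctttttcctgtgctccgagtaggtg
Slc19a1 probe a: caggccactgcgagtctgggttgtctattg
Slc19a1 probe b: cagttgcgtcctggggaaagcttcatcaca
Slc46a1 probe a: tctacccacccttgacctcagccttggcaa
Slc46a1 probe b: tggcatttcagggaccaagcgtgagaccga
Mthfd1 probe: ggccctgtttttatgatattgatttggatc

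The letters AATAAA, searched on the printed strand of the 60 bases, were in 1 of the 12 probes and in 4965 of all 39429 (12.6%). The G and C share of the 12 probes ran from 36.7% to 55%, with a median of 45% against 41.7% for all probes. Exon, intron, and untranslated region were not assigned, because only coordinates of mm9 were at hand and no annotation of that build was used.

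Of the 12 probes, none was called in FA against PR, 1 was called in PR against CD, and 3 were called in FA against CD, all of them higher in the group named first. A call is an adjusted p under 0.05 by limma with Benjamini-Hochberg adjustment over 39429 probes. In the same comparisons, 0.614%, 30%, and 34.4% of all probes were called, and 0.228%, 13.4%, and 16.4% were called higher. At a share of 0.614%, 0 calls among 12 probes says little. Whether the folate probes differ from all probes in these shares was not tested, and 12 probes are few for it. Counting higher calls alone, the folate probes had 0 of 12, 1 of 12, and 3 of 12 against those last 3 shares. The methods name stricter limits for the Tukey test, a 2-fold change and an adjusted p under 0.0001. With these limits applied to limma, none of the 12 was called in any comparison, against 0%, 0.0862%, and 0.195% of all probes. With the Tukey test, 0, 0, and 1 of all probes met them. The genes called higher were Mthfd1 in both comparisons against CD, and Slc19a1 and Slc46a1, each at 1 of its probes, in FA against CD. The count of 3 in FA against CD fell to 1, Mthfd1, without FA replicate 3, and lay between 2 and 4 without any other array. PR against CD and FA against CD share the CD arrays. Of all calls, 37.2% were higher in FA against PR, and 16.9% with scaling to the 75th percentile. That share was 44.7% in PR against CD and 47.6% in FA against CD, and with a normexp background 56.2% and 56.4%.

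**Figure D1:**
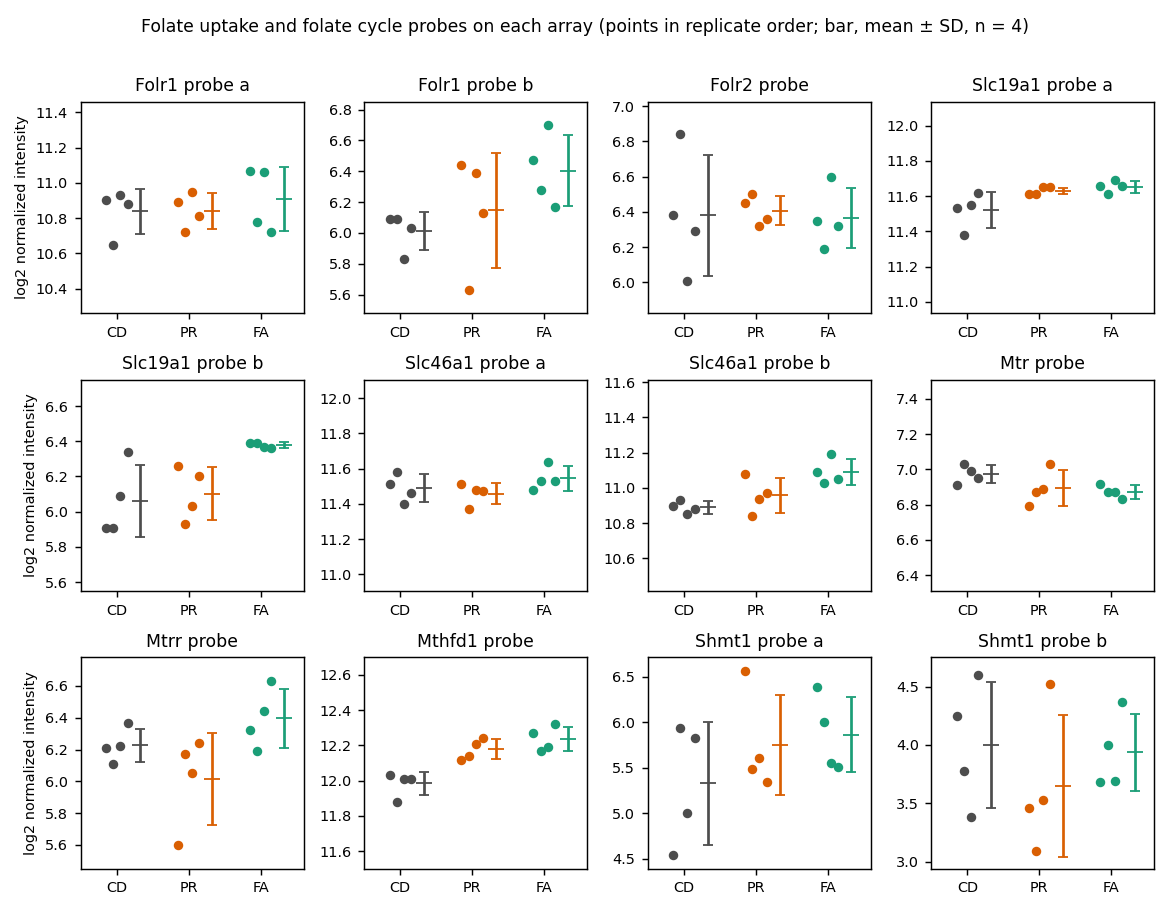
Log2 normalized intensity (vertical axis, scaled separately in each panel) of the 12 probes of the folate genes on each array, by maternal diet, with points in replicate order and the bar giving the mean and SD of 4 arrays. The 4 CD points of Mthfd1, between 11.88 and 12.03, lie below all PR and FA points, whereas the CD, PR, and FA points of Folr1 probe a, Folr2, and Mtr overlap.

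The folate receptor Folr1 did not pass the test in any comparison. Probe a (accession NM_008034, mm9 chr7:109006846-109006905, minus strand) read 10.90, 10.65, 10.93, and 10.88 on the log2 scale in CD, 10.89, 10.72, 10.95, and 10.81 in PR, and 11.07, 10.78, 11.06, and 10.72 in FA. The 3 groups overlapped, and the lowest array was replicate 2 in CD and PR and replicate 4 in FA. FA differed from PR by 0.07 (SE 0.097, 95% interval -0.15 to 0.28, adjusted p = 0.815), and PR from CD by 0.00 (adjusted p = 0.991). On the linear scale the interval of FA against PR runs from 0.903 to 1.22 times the PR level, which leaves room for a change of that size.

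Folr1 probe b, at chr7:109016972-109017031, was read near 6 on the same scale. It read 6.09, 6.09, 5.83, and 6.03 in CD, 6.44, 5.63, 6.39, and 6.13 in PR, and 6.47, 6.28, 6.70, and 6.17 in FA. All FA arrays lay above all CD arrays, and the PR arrays spanned both. The difference of FA from CD was 0.39 (SE 0.176, adjusted p = 0.111), and it passed the threshold in the fit of these 2 groups alone (adjusted p = 0.0468) and in the fit without PR replicate 2 (adjusted p = 0.0347). The adjusted p ran from 0.0347 to 0.309 over the alternatives. The within-group correlation of both Folr1 probes was 0.586 over the 12 arrays, which share slide and sample.

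Folr1 was read beside 16 marker genes of the choroid plexus epithelium, all measured and all well above background on every array at their leading probe. Their summed linear level ran from 147655 to 154588 in CD, 152110 to 163954 in PR, and 135322 to 157109 in FA, so the groups overlapped in this sum. It is weighted to the brightest genes, Ttr and Enpp2 (means of 16.18 and 15.94 in CD, with Clic6 next at 11.90), and says little of the other markers. Of their 22 probes, 0 were called in FA against PR, 1 was higher and 3 were lower in PR against CD, and 4 were lower in FA against CD, beside 16.6% and 18% lower of all probes. Those called lower were Slc4a5, Prlr, and Col8a1 in both comparisons and F5 in FA against CD, and the higher one was Kcnj13. Ttr, the transthyretin of choroid plexus, averaged 16.18 ± 0.056 (SD, n = 4) in CD, 16.21 ± 0.095 in PR, and 16.06 ± 0.092 in FA, and it was called in no comparison (limma adjusted p = 0.320 for FA against PR). Its lowest array was FA replicate 2 at 15.94. The part of choroid plexus content in the Folr1 values was not tested.

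**Figure D2:**
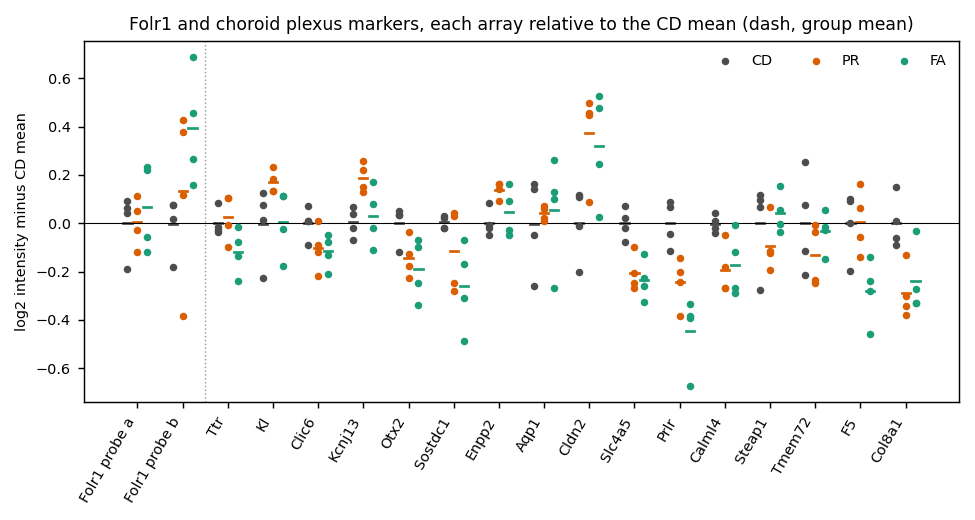
Log2 intensity of the Folr1 probes and of the leading probe of 16 choroid plexus markers on each array, minus the mean of the 4 CD arrays, with a dash at each group mean. Folr1 probe a stays close to 0 in all 3 groups, as does Ttr, while Folr1 probe b averages 0.39 above CD in FA, without a call. Prlr lies lower in PR and in FA, with an adjusted p of 0.0479 in PR against CD and 0.0025 in FA against CD by limma.

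Folr2 did not pass the test in any comparison. Its probe (chr7:108988771-108988830, minus strand) read 6.38, 6.84, 6.01, and 6.29 in CD, 6.45, 6.50, 6.32, and 6.36 in PR, and 6.35, 6.19, 6.60, and 6.32 in FA. The highest and the lowest of the 12 values were both CD arrays, and the differences of -0.04, 0.03, and -0.01 for FA against PR, PR against CD, and FA against CD were small beside the SE of 0.152. Of 8 genes that mark perivascular and border macrophages, 7 were well above background on all arrays, and Cd163 was so on 1 array only. Their summed level was 3178 to 3310 in CD, 2914 to 3466 in PR, and 2897 to 3242 in FA, and of 10 probes 0 were called in FA against PR, 3 were lower in PR against CD, and 2 were lower in FA against CD, beside the same 16.6% and 18% of all probes. Mrc1, the mannose receptor, averaged 8.50 in CD, 8.61 in PR, and 8.53 in FA, with no call. Against CD, Stab1 was lower in PR (-0.24, limma adjusted p = 0.0146) and in FA (-0.34, adjusted p = 0.0022). Ms4a7 was lower in PR (-0.35, adjusted p = 0.0277), and no other leading probe of the list was called.

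The reduced folate carrier Slc19a1 was higher in FA than in CD at 1 of its probes. Probe b (chr10:76501259-76501318, plus strand) read 5.91, 5.91, 6.09, and 6.34 in CD, 6.26, 5.93, 6.03, and 6.20 in PR, and 6.39, 6.39, 6.37, and 6.36 in FA. The FA arrays lay within 0.03 of each other and above every CD and PR array, although the gap to the highest CD array was only 0.02. FA exceeded CD by 0.32 (SE 0.101, 24.6%, adjusted p = 0.034) and PR by 0.28 (21.1%, adjusted p = 0.251). The call was lost without any 1 of 3 CD arrays (replicates 1 to 3) or of the 4 FA arrays, where the adjusted p ran from 0.0575 to 0.0886, and with the Tukey test (0.105).

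Slc19a1 probe a, at chr10:76512874-76512933, read 11.53, 11.38, 11.55, and 11.62 in CD, 11.61, 11.61, 11.65, and 11.65 in PR, and 11.66, 11.61, 11.69, and 11.66 in FA. CD replicate 2 was lowest, and CD replicate 4 lay within the range of the other diets. FA differed from CD by 0.13 (SE 0.051, adjusted p = 0.069), PR from CD by 0.11 (adjusted p = 0.134), and FA from PR by 0.02 (adjusted p = 0.890). Under the alternatives it was called in FA against CD with a variance trend (adjusted p = 0.0458), with both probes averaged (adjusted p = 0.0300), and without CD replicate 4 (adjusted p = 0.0262).

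The proton-coupled folate transporter Slc46a1 was likewise higher in FA than in CD at probe b only. Probe b (chr11:78285251-78285310, plus strand) read 10.90, 10.93, 10.85, and 10.88 in CD, 11.08, 10.84, 10.94, and 10.97 in PR, and 11.09, 11.03, 11.19, and 11.05 in FA. Every FA array was above every CD array, and PR lay between them and overlapped both. The difference of FA from CD was 0.20 (SE 0.056, 1.15-fold, adjusted p = 0.018), that of FA from PR 0.13 (adjusted p = 0.321), and that of PR from CD 0.07 (adjusted p = 0.385). Without FA replicate 3 the difference of FA from CD was 0.17 and missed the threshold (adjusted p = 0.0516).

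Slc46a1 probe a, at chr11:78285379-78285438, read 11.51, 11.58, 11.40, and 11.46 in CD, 11.51, 11.37, 11.48, and 11.47 in PR, and 11.48, 11.53, 11.64, and 11.53 in FA. The groups overlapped in every comparison, and FA differed from CD by 0.06 (SE 0.054, adjusted p = 0.457). The level of probe b minus that of probe a on the same array was -0.65 to -0.55 in CD, -0.54 to -0.42 in PR, and -0.50 to -0.39 in FA. This difference was thus larger in size on all 4 CD arrays than on any other array, by 0.10 on average against PR and by 0.15 against FA. The exact two-sided permutation test gave p = 0.0286 for both, the smallest that 4 against 4 arrays allow, and an adjusted p of 0.114 over the 12 such tests of 4 genes and 3 comparisons. The test was added after the values of the probes had been seen. In the same family the pair of Slc19a1 gave p = 0.0286 (adjusted 0.114) for FA against PR by the exact permutation test, and that of Folr1 gave 0.0571 (adjusted 0.171) for FA against CD. In a family of 12 such tests, an adjusted p under 0.05 would need 7 or more at the smallest p, so these tests could hardly pass and show nothing about whether the probes of a gene moved alike.

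Endothelial markers, from the cells of the blood-brain barrier, changed unequally in the comparisons against CD. The summed level of the 8 genes was 58464 to 62501 in CD, 64538 to 71340 in PR, and 62867 to 67550 in FA, with no overlap of CD with PR or FA. This sum is weighted to the brightest genes, such as Ly6c1, Slc2a1, and Cldn5 (means of 13.92, 13.79, and 13.47 in CD), and says little of the other markers. In PR the means of Slco1c1, Cdh5, and Flt1 were below those in CD, and the means of the other markers above. Of their 10 probes, 3 were called higher and 0 lower in PR against CD, 3 higher and 2 lower in FA against CD, and 0 in FA against PR, beside 13.4% higher of all probes in the first comparison and 16.4% higher and 18% lower in the second. In FA against CD the median of the 10 was -0.02, with Ly6c1 and Cldn5 called higher and Flt1 and Slco1c1 lower. Their part in the values of the carriers was not tested.

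**Figure D3:**
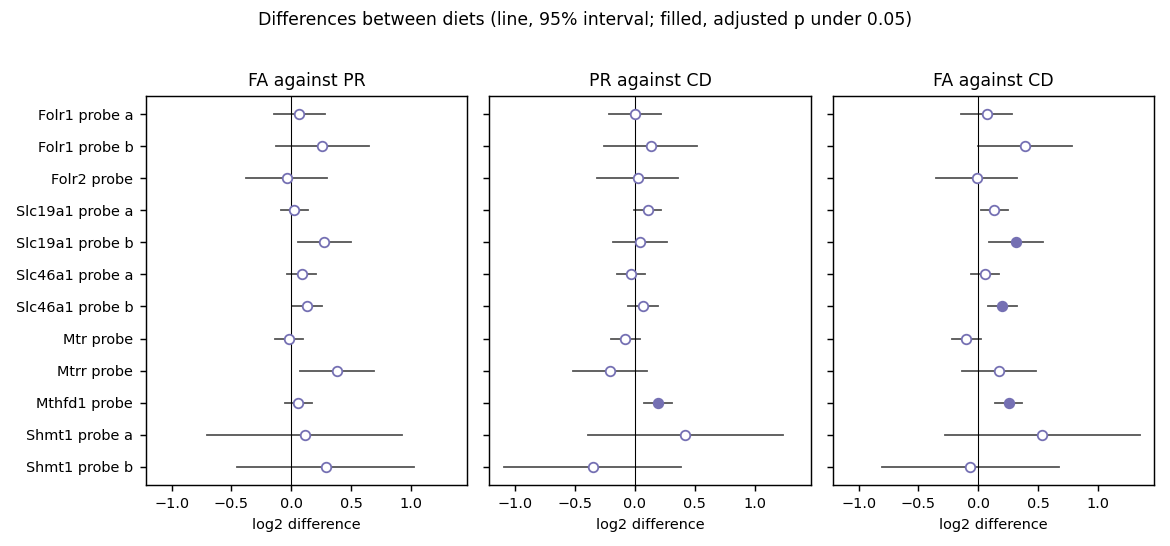
Log2 difference between diets (horizontal axis) for each of the 12 probes, with its 95% interval from limma, and filled points at an adjusted p under 0.05. No point is filled in FA against PR, Mthfd1 is filled in both comparisons against CD, and Slc19a1 probe b and Slc46a1 probe b are filled in FA against CD.

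Mthfd1, the cytosolic enzyme that carries out 3 successive steps of folate interconversion, was higher on both low-protein diets. Its probe (chr12:77418622-77418681, plus strand) read 12.03, 11.88, 12.01, and 12.01 in CD, 12.12, 12.14, 12.21, and 12.24 in PR, and 12.27, 12.17, 12.19, and 12.32 in FA. Every PR and every FA array exceeded every CD array, and PR overlapped FA. PR exceeded CD by 0.19 (SE 0.051, 95% interval 0.08 to 0.31, 14.4%, adjusted p = 0.016), and FA exceeded CD by 0.25 (SE 0.051, 95% interval 0.14 to 0.37, 19.1%, adjusted p = 0.0036). Both calls held under every alternative run, with the adjusted p between 0.0090 and 0.0480 for PR against CD and between 0.0017 and 0.0121 for FA against CD. FA differed from PR by 0.06 (95% interval -0.05 to 0.17, adjusted p = 0.669). The pituitary genes Gh and Prl moved in the same comparisons, and their part in the Mthfd1 values was not tested. The spread of Mthfd1 within groups, an SD of 0.064, was below the median of 0.103 for probes well above background on all arrays.

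Across all probes, groups that do not overlap made up 33.2% in PR against CD (14.2% higher) and 36.9% in FA against CD. Among the 12 probes these were Mthfd1 in the first comparison, and Mthfd1, Folr1 probe b, Slc19a1 probe b, and Slc46a1 probe b in the second, all higher, as were 17.1% of all probes. In FA against PR only Slc19a1 probe b had groups that did not overlap, higher in FA, against 11.1% of all probes (6.15% higher).

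The methionine synthase pair showed no call. The probe of Mtr (chr13:12279165-12279224, minus strand) read 6.91, 7.03, 6.99, and 6.95 in CD, 6.79, 6.87, 6.89, and 7.03 in PR, and 6.92, 6.87, 6.87, and 6.83 in FA. It was the only probe of the 12 with its highest mean in CD and its lowest in FA, with FA against CD at -0.10 (SE 0.054, adjusted p = 0.188), and the groups overlapped.

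Mtrr had the largest difference in FA against PR among the 12 probes. Its probe (chr13:68699721-68699780, minus strand) read 6.21, 6.11, 6.22, and 6.37 in CD, 5.60, 6.17, 6.05, and 6.24 in PR, and 6.32, 6.19, 6.44, and 6.63 in FA. PR replicate 1 was the lowest of the 12 arrays, and FA replicate 2 lay below PR replicate 4. FA exceeded PR by 0.38 (SE 0.140, 95% interval 0.07 to 0.69), which did not pass after adjustment (adjusted p = 0.250), and the difference ran from 0.24 to 0.46 when each array was left out in turn. PR against CD was -0.21 (adjusted p = 0.286) and FA against CD 0.17 (adjusted p = 0.374).

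Shmt1, the cytosolic serine hydroxymethyltransferase, was close to background and could be read only in part. Probe a (chr11:60620453-60620512, minus strand) cleared the background limit on 2 of the 4 CD arrays and on all PR and FA arrays. It read 4.54, 5.94, 5.0, and 5.83 in CD, 6.56, 5.48, 5.61, and 5.34 in PR, and 6.39, 6.00, 5.55, and 5.51 in FA. The ranges of the 3 diets overlapped, and the within-group SD of 0.556 was the largest of the 12 probes. Probe b (chr11:60603099-60603158) cleared it on 0 CD arrays, 1 PR array, and 1 FA array, with readings between 3.09 and 4.60, so that no fold is given. The within-group correlation between both probes was -0.148 over 12 arrays.

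In FA against PR, whose diets differ in folic acid, 10 of the 12 differences were above 0, as were 55.8% of all probes. The median was 0.10 for the 12 probes and 0.02 for all probes. Before adjustment, Slc19a1 probe b, Slc46a1 probe b, and Mtrr (3 of 12) were under 0.05, and 5572 of 39429 probes were. The Tukey test of the methods called 0 of the 12 and 8 of all probes after the same adjustment. On arrays simulated for FA against PR with 200 changed probes of 39429, limma called 76% of log2 changes of 1 and 51% of log2 changes of 0.5, with 13 false calls. The changed probes were drawn from all probes, bright or dim. Both sizes exceed every difference of the 12 probes (at most 0.38), so these rates do not tell how often changes of that size would be called. Over the 10 probes well above background on all arrays, the 95% intervals of FA against PR reached from 0.770 (Folr2) to 1.62 times (Mtrr) the PR level. In the other comparisons, the median of the 12 differences was 0.03 for PR against CD and 0.15 for FA against CD, against -0.02 and -0.01 for all probes.

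Other genes of the pathway were drawn from a list of 40, covering receptors and uptake, cytosolic folate handling, nucleotide synthesis, mitochondrial folate, glycine cleavage, and vitamin B12 supply, of which 38 had 50 probes on the array. In FA against PR, 1 of the 50 was called, and it was higher. In PR against CD 8 were higher and 4 lower, and in FA against CD 10 were higher and 4 lower. Of all probes, 0.386%, 16.6%, and 18% were called lower in the 3 comparisons. The calls in the comparisons against CD, 12 and 14 of 50, stand beside shares of 30% and 34.4% for all probes, and the difference was not tested. The median difference was 0.04, -0.04, and -0.01 in the 3 comparisons.

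**Figure D4:**
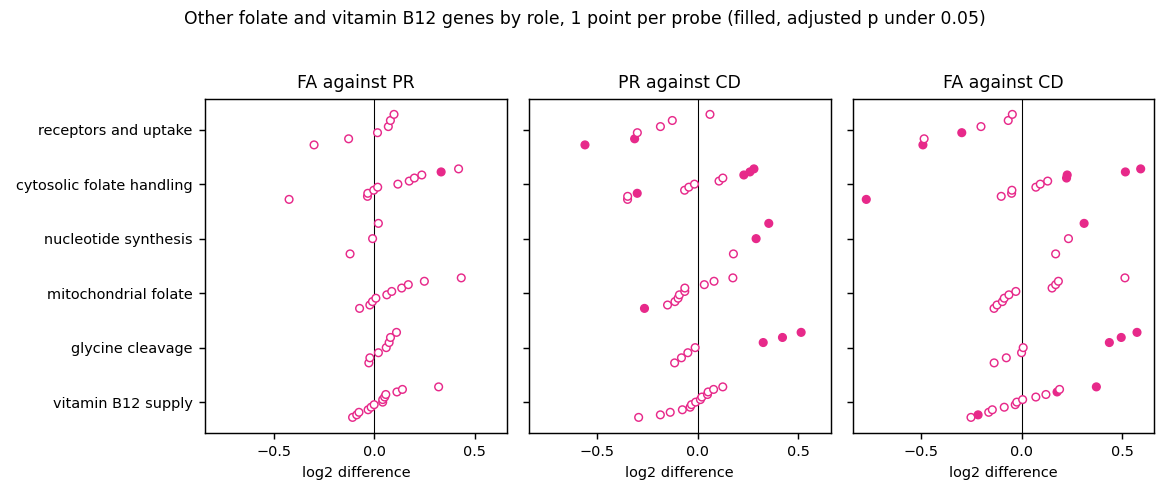
Log2 difference between diets (horizontal axis) of 50 probes of other folate and vitamin B12 genes, grouped by role (vertical axis), 1 point per probe and filled at an adjusted p under 0.05 by limma. A single point, Mthfsd probe a, is filled in FA against PR, while in the comparisons against CD the filled points number 12 and 14 of 50 and lie on both sides of 0.

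The probe called in FA against PR was 1 of the probes of Mthfsd, a gene named for its likeness to methenyltetrahydrofolate synthetase. Mthfsd probe a read 9.47, 9.43, 9.41, and 9.38 in CD, 9.62, 9.74, 9.71, and 9.67 in PR, and 9.97, 10.04, 9.99, and 10.06 in FA, so that no group overlapped another. FA exceeded PR by 0.33 (SE 0.041, adjusted p = 0.0136) and CD by 0.59, and PR exceeded CD by 0.26 (adjusted p = 0.0012). Mthfsd probe b was not called and its groups overlapped, at -0.03 in FA against PR (adjusted p = 0.866), 0.12 in PR against CD, and 0.09 in FA against CD. The call of probe a in FA against PR was lost when probes of a gene were averaged (0.15, adjusted p = 0.110). Mthfs, the synthetase that returns 5-formyltetrahydrofolate to the cycle, was higher than CD by 0.28 in PR (adjusted p = 0.034) and by 0.52 in FA (adjusted p = 0.0013). The call in PR was lost without CD replicate 2 or 4 or PR replicate 2, 3, or 4, with a normexp background, with only these 2 groups, and with the Tukey test (adjusted p of 0.0548 or more).

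Among the genes that use single-carbon folates, the glycine cleavage genes had 3 of 7 probes higher in both comparisons against CD, beside 13.4% and 16.4% of all probes. These were both probes of Dld and the probe of Amt, while the 3 probes of Gcsh and that of Gldc were not called. Dld, the dihydrolipoamide dehydrogenase that glycine cleavage shares with other enzyme complexes, exceeded CD at probe b by 0.51 in PR (adjusted p = 0.0017) and by 0.57 in FA. Amt, the aminomethyltransferase that passes the carbon of glycine to folate, exceeded CD by 0.42 in PR (adjusted p = 0.016, and 0.0580 with the Tukey test) and by 0.50 in FA. Of the 3 nucleotide synthesis genes, Tyms, the thymidylate synthase, was higher in PR than in CD by 0.35 at an adjusted p of 0.0486, and this call was lost without CD replicate 1, 2, or 3, PR replicate 1, 3, or 4, or FA replicate 2 or 4 and under 8 of the other 10 alternatives. Gart, a purine synthesis enzyme outside the rule for named genes and named after its values were seen, exceeded CD by 0.29 in PR and by 0.31 in FA.

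Falls against CD were fewer. Lrp2 (megalin), an endocytic receptor that takes up vitamin carriers, read 6.41, 6.10, 6.39, and 5.99 in CD, 5.61, 5.68, 5.80, and 5.55 in PR, and 5.91, 5.64, 5.86, and 5.51 in FA. It was lower than CD by 0.56 in PR (log2 difference -0.56, adjusted p = 0.0055) and by 0.49 in FA (-0.49, adjusted p = 0.0091), with no overlap. The other receptor probe called lower in both, of Cubn, was not well above background on any array, so that no fold is given. The mitochondrial Mthfd1l was lower in PR than in CD at probe a (-0.27, adjusted p = 0.031). That call was lost without CD replicate 2, 3, or 4 or PR replicate 1 or 4, where the difference ran from -0.21 to -0.27, and with the Tukey test (adjusted p = 0.0893), and probe b was not called (-0.10, adjusted p = 0.230). Lmbrd1, which exports vitamin B12 from lysosomes, was lower in FA than in CD (-0.22, adjusted p = 0.032), a call lost without CD replicate 1 or 2 or FA replicate 3 or 4, with only these 2 groups (adjusted p = 0.0685), and with the Tukey test (0.0807).

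The genes whose arrays deviated from their group means most like those of each folate gene were taken among 23752 other probes well above background on all arrays, as a description over 12 arrays that share slides. The highest Pearson correlation was with Gm6613 for Folr1 (0.965), Vasp for Folr2 (0.902), Pdcl3 for Slc19a1 (0.977), Mrps24 for Slc46a1 (0.929), Gm9307 for Mtr (0.917), Trim21 for Mtrr (0.943), and a transcript named ENSMUST00000098074 for Mthfd1 (0.930). The next were Dhx40 for Folr1 (0.962), Hnmt for Slc19a1 (0.973), Pyroxd2 for Slc46a1 (0.916), Trhr2 for Mtr (0.871), Ptp4a1 for Mtrr (0.931), and Recql for Mthfd1 (0.916). The third were Rpl17 for Folr1 (0.926), Map4k2 for Folr2 (0.872), Ttc26 for Slc19a1 (0.967), C8g for Slc46a1 (0.916), ENSMUST00000065124 for Mtr (0.865), Rpl11 for Mtrr (0.919), and Asph for Mthfd1 (0.916). No other folate gene was among them. The values were picked as the highest among 23752 probes over 12 arrays, so unrelated genes could reach high values too, and no test was made.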

How the data were processed

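The authors hybridized and scanned the arrays and quantified them with Agilent Feature Extraction 11.0.1.1, annotated to mm9. The deposited scanner files hold spot intensities with flags for outliers and for spots well above background, and the deposited values used here are qspline-normalized intensities, 1 per probe and linear. Their log2 was fitted for all 12 arrays and 3 groups at once (limma 3.58.1 under R 4.3.3), with Benjamini-Hochberg adjustment over 39429 probes. A probe counted as well above background where the flag was set for 50% or more of its spots on that array. The number of arrays limits the precision. The folate genes, marker lists, and pathway list were chosen with earlier results of these data known. Named were all probes of the 8 genes, pathway probes called in FA against PR, the 3 largest rises and falls called in each other comparison among probes well above background, and the 3 genes most alike in deviation from the group means. Of the genes so chosen, 2 are not reported here. The 11 methylation samples were not analysed here.

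Alternatives were scaling of the scanner signal to the 75th percentile, quantile normalization, a normexp background with an offset of 50, leaving out outlier spots, removing dim probes, the replicate number as a block, only the 2 groups compared, a variance trend with robust estimation, the Tukey test named in the methods, averaging the probes of a gene, and leaving out each array. The values of named pathway probes under these alternatives and the exact permutation tests between probes were added after the data were seen. The fit was tested on simulated arrays. Files were read with the R package data.table (version 1.17.8) and summarised in Python 3.11.15 using pandas 2.3.3, scipy 1.17.1, and numpy 2.4.6.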

Additional observations from a re-analysis of the deposited data

How the results depend on the processing

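Of the 12 folate probes, 0 in FA against PR and 1 in PR against CD were called under every alternative run. In FA against CD the number ran from 1 to 4 when each array was left out, with 1 without FA replicate 3, where Slc19a1 probe b and Slc46a1 probe b were lost. Of the other pathway probes, 0 were called in FA against PR with a replicate block (Mthfsd probe a at 0.33, adjusted p = 0.0699) and 0 with probes of a gene averaged, and 7 in PR against CD with the Tukey test. The replicate number comes from the sample titles, which do not say what it stands for. Deviations of arrays of the same number had correlations from -0.063 to 0.196 (3 of 12 over 0.1), and those of different numbers from -0.216 to 0.18. Of the 12 arrays, 5 were closest to their own number. These values do not settle whether arrays are paired by the replicate number. With that number as a block, all called probes went from 242 to 11 in FA against PR, from 11820 to 10986 in PR against CD, and from 13558 to 12710 in FA against CD, and the 12 folate probes kept their number of calls (0, 1, and 3). The slide could not be fitted as a block, since each slide held 1 diet. Over all probes, calls in FA against PR ran from 8 (Tukey) to 554 (dim probes removed), and calls at the stricter limits ran from 0 to 2014 (75th percentile scaling) in PR against CD, against 34 with the settings used here, and from 0 to 256 in FA against CD, against 77.

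Every difference that changed sign under an alternative missed the threshold both there and as reported. With a normexp background these were Slc19a1 probe a in FA against PR (-0.0036) and, in PR against CD, Folr2 (-0.0337), Slc19a1 probe b (-0.0038), and Slc46a1 probe a (0.0079, and 0.0185 with probes averaged). With 75th percentile scaling these were Shmt1 probe a (-0.0017) and Lrp2 (-0.0541) in FA against PR, and Folr2 (0.0157) and Shmt1 probe b (0.2223) in FA against CD. Mthfd1l in FA against CD was 0.0278 with probes averaged. Leaving out each array gave ranges that crossed 0 in FA against PR for Folr2 (-0.1189 to 0.0177), Mtr (-0.0547 to 0.0269), Shmt1 probe a (-0.0625 to 0.3832), and Lmbrd1 (-0.0671 to 0.0225). In PR against CD they did so for Folr1 probe a (-0.0601 to 0.0434), Folr2 (-0.0983 to 0.1787), Slc19a1 probe b (-0.0111 to 0.134), and Slc46a1 probe a (-0.0626 to 0.0001), and in FA against CD for Folr2 (-0.1382 to 0.1388) and Shmt1 probe b (-0.2737 to 0.1359). The cause was not tested. The signal over background limits Shmt1. Its probe b cleared it on 0 CD arrays and 1 array each of PR and FA, so that the values of that probe show no fold.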
